A study of Homo sapiens with 24 samples.

Results

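The transcriptional response of parental 5637 cells to neratinib was described from 6 of the 24 libraries of the series, chosen by their labels alone: 3 libraries of parental 5637 cells given 600 nM neratinib for 24 h and 3 libraries of control dishes without the drug. The line 5637 was derived from a human bladder carcinoma. Genes of ERK output, sterol synthesis and the cell cycle were set aside, and the remaining genes were taken in 5 classes, namely transporters, secreted factors, surface proteins, transcription factors and noncoding genes. For comparison, 6 libraries of NR 5637 cells, a neratinib-resistant derivative kept off the drug for 1 week before seeding, carried the same dose and its control. Another 6 libraries came from parental OVCAR8 cells, an ovarian carcinoma line, given 1 µM neratinib or control for 24 h, and the last 6, from resistant OVCAR8 cells, entered only the shared fit of both lines. Dishes were seeded in triplicate, so the 3 libraries of a group may be technical replicates of 1 culture, and the p-values then reflect only how far these dishes spread. How the resistant cells were selected, and what the control dishes received, are not given in the sources used here.

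Neratinib binds irreversibly to the kinase domains of EGFR, ERBB2 and ERBB4. These receptors feed the RAS-ERK cascade and the PI3K-AKT-mTOR pathway. Both pathways reach many genes outside proliferation. Growth factor signals set the supply of nutrient carriers, the release of cytokines and proteases, and the display of immune ligands, while the transcription factor ATF4 raises amino acid carriers and stress factors when amino acids are short or protein folding is disturbed.

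Libraries held 37010376 to 42814227 counts with neratinib and 40180288 to 42494819 in controls, and the 24 libraries of the series held 23849832 to 48486296. Over the 12 libraries of 5637 the first principal component, which separated parental from NR cells, held 67.6% of the variance, and the second, which separated neratinib from control libraries, held 23%. Of 20 urothelial and epithelial markers, 18 exceeded 1 CPM (read counts scaled to the library total), with summed levels of 14020 to 15360 CPM with neratinib and 15020 to 15790 CPM in controls, but the uroplakin genes UPK1A and UPK3A of the surface layer stayed below 1 CPM. Among the immune markers CD2 and CD3D were at 0 in all 6 libraries, and nearly all of the immune sum (239 to 243 CPM with neratinib, 414 to 430 CPM in controls) was LCP1. None of 5 endothelial markers reached 1 CPM, and their sums were 0.784 to 0.888 CPM with neratinib and 0.863 to 1.37 CPM in controls. Of 9 fibroblast markers 4 exceeded 1 CPM, with sums of 303 to 321 CPM with neratinib and 209 to 219 CPM in controls, made mainly by COL1A1 and THY1, while COL3A1, DCN and LUM were near 0; of 8 ovarian markers 6 exceeded 1 CPM, mainly MUC16 (369 CPM with neratinib and 278 CPM in controls), and SOX17 was at 0. In 1 library outside this line, parental OVCAR8 control replicate 2, genes longer than 8 kb held 14.1% of counts, against up to 21.2% in the other libraries of its group. In these bulk libraries, fewer cells of a type and less RNA per cell cannot be told apart.

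The labels were first checked on a gene that follows ERK activity. DUSP6, an ERK phosphatase induced by ERK itself, had 2.65, 1.75 and 1.92 CPM with neratinib, against 75.1, 72.5 and 60.8 CPM in controls (log2 fold change -5.16 ± 0.12 SE, edgeR quasi-likelihood test, adjusted p = 1.5e-13). The receptor genes moved little. ERBB3 rose with a log2 fold change of 0.27 ± 0.05 (edgeR adjusted p = 0.00025), while the rises of EGFR (0.14) and ERBB2 (0.2) were lost when single libraries were left out. Tests covered 18307 genes, of which 23.9% rose and 23.5% fell, together 47.3%, with a median log2 fold change of 0.02. Rises of at least 2-fold made up 6.02% and such falls 3.36%. With library size as the only scaling, the median was 0.13 and the higher share of the calls was 64.2% in place of 50.4%, so the direction of small changes depends on the scaling.

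**Figure D1:**
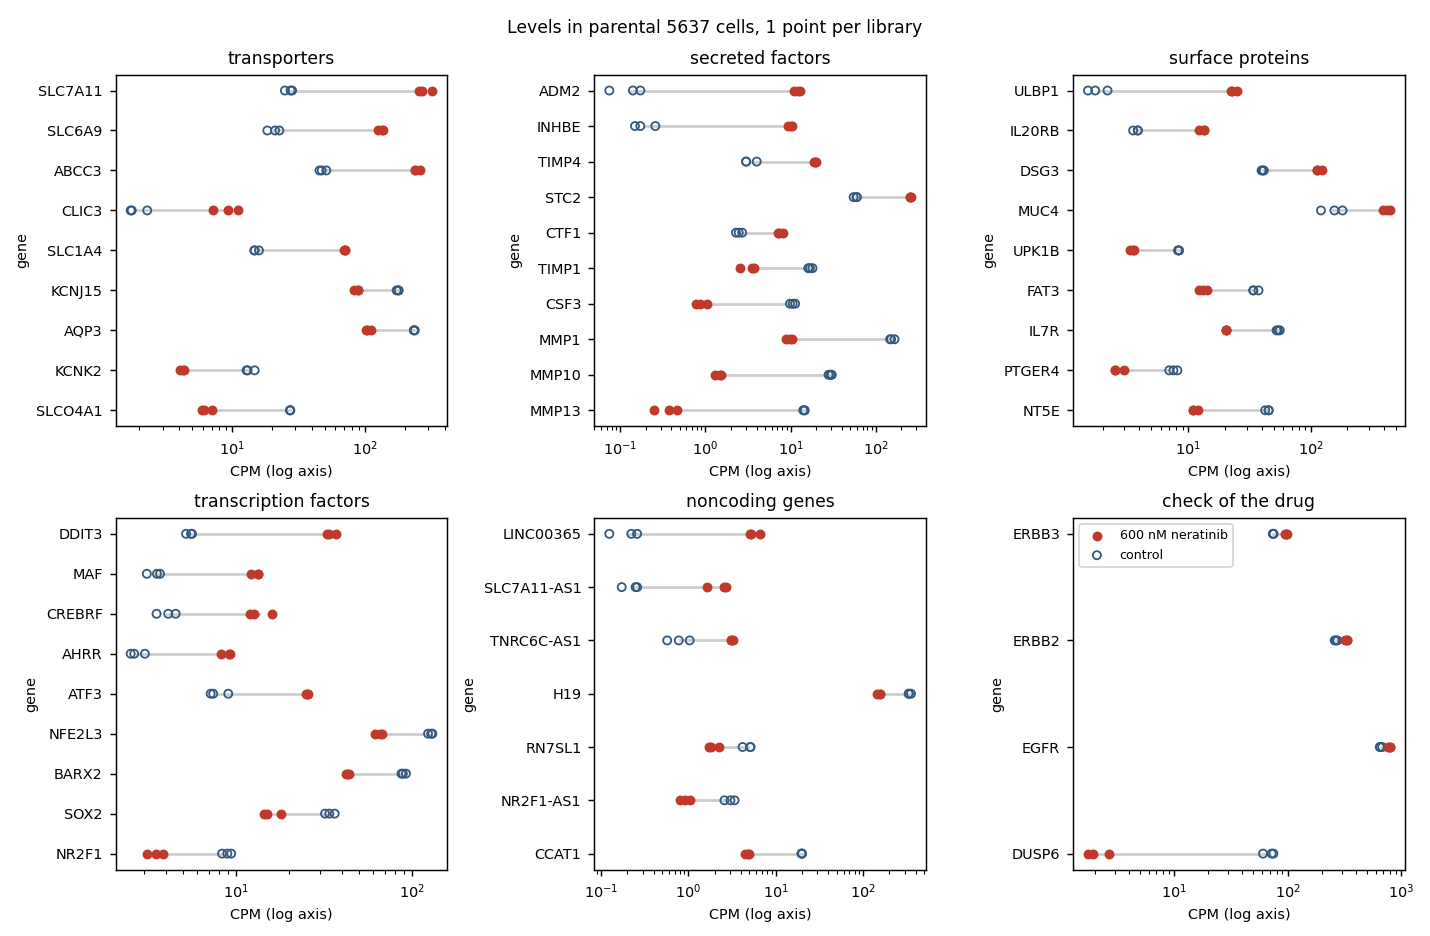
CPM on a log axis in the 3 neratinib libraries (filled) and the 3 control libraries (open) of parental 5637 cells for the leading genes of each class that are described here and for DUSP6 and the ERBB receptor genes; grey lines join the group means. Neratinib and control points stand apart in every row shown, which for the leading genes was a condition of their choice. The lowest value is 0.0747 CPM, of ADM2 in control replicate 1.

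Transporters were called more often in the rising direction. Of 702 transporter genes in the table, 453 had enough counts to be tested, and of these 155 rose (34.2%, against 23.9% of all genes) and 104 fell (23%, against 23.5%). At least 2-fold rises numbered 54, against 21 such falls. Amino acid carriers of the plasma membrane led: of 26 tested, 13 were higher by the test, 8 lower and 5 neither, and with library size alone the split was 13 to 5. The list's median log2 fold change was 0.30. SLC7A11 (ENSG00000151012.9, hg19 chr4:139085251-139163503), which brings in cystine in exchange for glutamate, had 268, 257 and 323 CPM with neratinib and 28.3, 27.6 and 25 CPM in controls. The groups lay about an order of magnitude apart (log2 3.29 ± 0.13, edgeR adjusted p = 2.7e-11).

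SLC6A9 (ENSG00000196517.7, hg19 chr1:44457172-44497139), the glycine transporter GlyT1, stood at 135, 138 and 126 CPM with neratinib and at 18.4, 21.1 and 22.7 CPM in controls (log2 2.57 ± 0.08, edgeR adjusted p = 3.3e-12). For SLC1A4 (ENSG00000115902.6, hg19 chr2:65215611-65250999), a carrier of serine and alanine, the values were 71.4, 69.9 and 71.3 CPM with neratinib and 15.9, 14.7 and 14.8 CPM in controls (log2 2.12 ± 0.06, edgeR adjusted p = 6.8e-13). All neratinib libraries exceeded all controls for the carriers of cystine, glycine and serine. Groups without overlap were a condition for a leading gene to be named here, so this separation, in these and the genes that follow, describes the choice and is no result. Members of the same list also fell. The glutamate carrier SLC1A3 averaged 110.0 ± 8.99 CPM with neratinib and 198 ± 9.82 CPM in controls (log2 -0.95, edgeR adjusted p = 1.6e-08), and the cationic amino acid carrier SLC7A2 had a log2 fold change of -0.74 (edgeR adjusted p = 5.1e-06).

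ABC transporters, most of which export their substrates with ATP, rose in 12 of 27 tested cases (44.4%) and fell in 3 (11.1%), at a median of 0.24. ABCC3 (ENSG00000108846.11, hg19 chr17:48712138-48769613), which exports glucuronides and other organic anions, had 238, 259.7 and 240.2 CPM with neratinib and 45.5, 47.3 and 51.2 CPM in controls (log2 2.25 ± 0.08, edgeR adjusted p = 7.4e-12). The cholesterol exporter ABCG1 had 16.4, 18.9 and 16.1 CPM with neratinib and 3.61, 4.49 and 3.67 CPM in controls (log2 2.02 ± 0.12, edgeR adjusted p = 3.7e-09). Neither gene's groups overlapped. The peroxisomal fatty acid importer ABCD3 fell slightly, with a log2 fold change of -0.5 (edgeR adjusted p = 0.0022).

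Ion channels and their subunits were called higher in 56 (40.3%) and lower in 23 (16.5%) of 139 tests, with a median log2 fold change of 0.30. CLIC3, of the chloride intracellular channel family, had 11.2, 9.32 and 7.15 CPM with neratinib and 2.29, 1.75 and 1.72 CPM in controls (log2 2.15 ± 0.18, edgeR adjusted p = 1.5e-07). The potassium channel subunit KCNAB2 averaged 14.1 ± 0.584 CPM with neratinib and 4.68 ± 0.182 CPM in controls (log2 1.48, edgeR adjusted p = 6.3e-09). Among channels that fell, the leak potassium channel KCNK2 (ENSG00000082482.9, hg19 chr1:215179118-215410436) had 4.32, 4.01 and 4.25 CPM with neratinib and 12.8, 14.8 and 13.1 CPM in controls (log2 -1.8 ± 0.12, edgeR adjusted p = 7.5e-09). The groups of these 3 genes did not overlap, as the choice required. KCNJ15 (ENSG00000157551.13, hg19 chr21:39529128-39679279), an inward rectifier, had 82.4, 89 and 88.6 CPM with neratinib and 179, 179.7 and 174 CPM in controls (log2 -1.14 ± 0.05, edgeR adjusted p = 1.5e-10).

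Other carriers divided. SLCO4A1 (ENSG00000101187.11, hg19 chr20:61273797-61317137), an organic anion carrier that takes up thyroid hormone, had 7.0, 6.18 and 5.93 CPM with neratinib and 27.3, 27.4 and 27.4 CPM in controls, the largest fall among the transporters named (log2 -2.21 ± 0.11, edgeR adjusted p = 3.7e-10). The water and glycerol channel AQP3 had 111, 105 and 102 CPM with neratinib and 234, 235 and 238 CPM in controls (log2 -1.26 ± 0.08, edgeR adjusted p = 4.7e-09). Both genes separated the groups without overlap. Of 67 nucleoside, vitamin and organic ion carriers 24 rose and 14 fell (31 and 9 with library size alone), including a fall of the nucleoside carrier SLC29A1 (log2 -1.12, edgeR adjusted p = 1.6e-08). Mitochondrial carriers rose in 10 and fell in 15 of 46 tested cases, with the coenzyme A carrier SLC25A42 at log2 1.2 (edgeR adjusted p = 3.8e-07). Sugar and monocarboxylate carriers rose in 7 and fell in 7 of 31 cases, at 22.6% each, near the shares of all genes. Within that list the sugar carrier SLC2A11 rose (log2 1.28) and the lactate exporter SLC16A3 fell (-0.5), with edgeR adjusted p = 2.8e-08 and 0.00055. P-type ATPases rose in 7 and fell in 9 of 26 cases (9 and 7 with library size alone), and the phospholipid flippase ATP9A averaged 143 ± 4.83 CPM with neratinib and 65.7 ± 2.35 CPM in controls (log2 1.01, edgeR adjusted p = 1.1e-09).

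**Figure D2:**
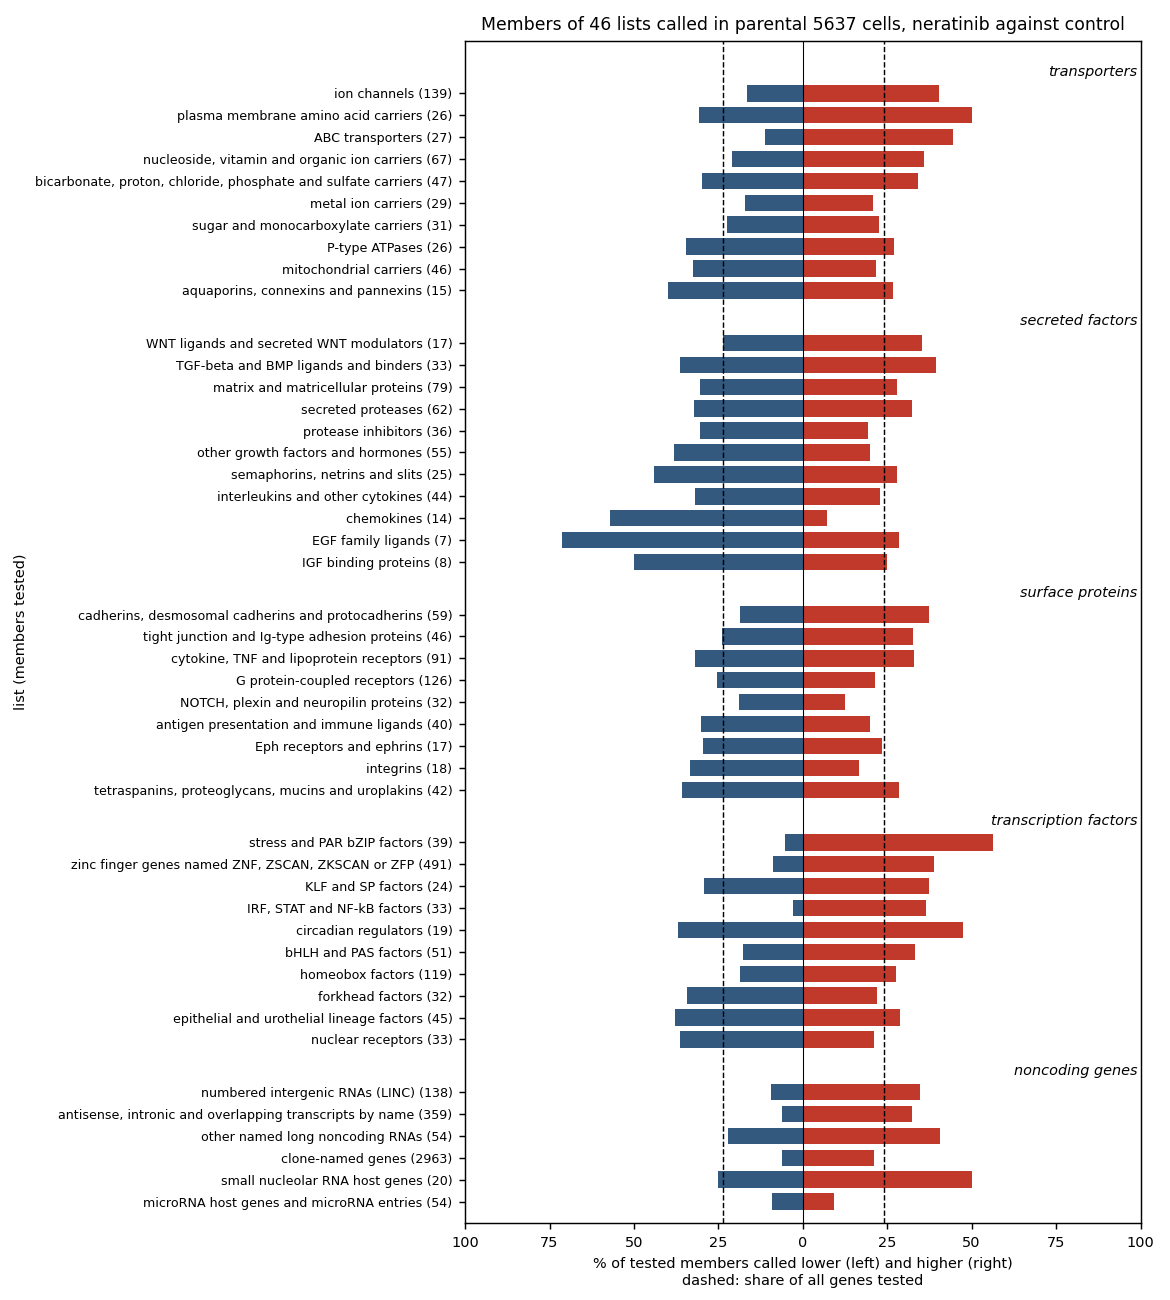
Share of the tested members of 46 gene lists called lower (blue, left) and higher (red, right) in parental 5637 cells given neratinib, with the number tested in brackets; dashed lines mark the shares of all 18307 genes, 23.5% lower and 23.9% higher. The red bar passes its line furthest for the stress bZIP factors (56.4%), and the blue bar for the EGF family ligands (71.4%, 5 of 7).

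Secreted factors had the highest share of falls among the 5 classes. Of 590 genes 379 were tested, 101 rose (26.6%) and 133 fell (35.1%, against 23.5% of all genes), and at least 2-fold changes counted 34 rises and 47 falls. The direction of the class depends on the scaling: its median was -0.04, and with library size alone it was 0.07, with 122 rises and 108 falls. The largest rises were in secreted signalling proteins. ADM2 (ENSG00000128165.7, hg19 chr22:50919985-50924869), a peptide of the calcitonin family, had 12.9, 12.1 and 11 CPM with neratinib and 0.0747, 0.173 and 0.141 CPM in controls (log2 6.39 ± 0.32, edgeR adjusted p = 4.9e-10). INHBE (ENSG00000139269.2, hg19 chr12:57846106-57853063), which encodes the activin E subunit, had 9.29, 10.4 and 10.1 CPM with neratinib and 0.149, 0.173 and 0.259 CPM in controls (log2 5.54 ± 0.22, edgeR adjusted p = 3e-11). Controls held almost no reads of either gene, so the size of these fold changes depends on few control counts.

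STC2 (ENSG00000113739.6, hg19 chr5:172741716-172756506), a stanniocalcin glycoprotein, had 259.5, 256 and 253 CPM with neratinib and 60.2, 59.3 and 55 CPM in controls (log2 2.03 ± 0.05, edgeR adjusted p = 3.2e-13). Every neratinib value lay far above every control value. CTF1, a cytokine of the IL6 family, averaged 7.56 ± 0.483 CPM with neratinib and 2.49 ± 0.209 CPM in controls (log2 1.49, edgeR adjusted p = 5e-07).

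Matrix metalloproteinases fell furthest. MMP13 (ENSG00000137745.7, hg19 chr11:102813724-102826463), collagenase 3, had 0.378, 0.249 and 0.467 CPM with neratinib and 14.1, 14.7 and 14.5 CPM in controls (log2 -5.39 ± 0.23, edgeR adjusted p = 8e-11). MMP10 (ENSG00000166670.5, hg19 chr11:102641234-102651359), stromelysin 2, had 1.3, 1.5 and 1.52 CPM with neratinib and 30.5, 28 and 29.3 CPM in controls (log2 -4.45 ± 0.13, edgeR adjusted p = 1.5e-12). For MMP1 (ENSG00000196611.4, hg19 chr11:102660651-102668891), the interstitial collagenase, the values were 10.4, 8.82 and 9.93 CPM with neratinib and 166, 152 and 148 CPM in controls (log2 -4.11 ± 0.09, edgeR adjusted p = 1.2e-13). All 3 genes lie in 1 cluster on chromosome 11, and no neratinib value reached a control value, as the choice required. Secreted proteases as a list did not lean either way, with 20 rises and 20 falls among 62 tested, and the serine proteases TMPRSS3 (log2 1.4) and PRSS16 (1.02) rose, with edgeR adjusted p = 9e-07 and 6.3e-08. Their inhibitors also moved apart. TIMP4 had 18.7, 20 and 19.2 CPM with neratinib and 4.01, 3.01 and 3.01 CPM in controls (log2 2.42 ± 0.15, edgeR adjusted p = 3.1e-09), whereas TIMP1 had 3.57, 3.74 and 2.57 CPM with neratinib and 18.1, 16.9 and 16.1 CPM in controls (log2 -2.48 ± 0.13, edgeR adjusted p = 6.6e-10). PI3, the elastase inhibitor elafin, averaged 2.94 ± 0.487 CPM with neratinib and 10.6 ± 0.688 CPM in controls (log2 -1.97, edgeR adjusted p = 4e-08).

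Chemokines fell in 8 of 14 tested cases (57.1%) and rose in 1, a rise lost without control replicate 2 or neratinib replicate 3 (2 rises and 7 falls with library size alone). The neutrophil attractants CXCL1 and CXCL6 fell, CXCL1 with 21.4, 18.2 and 20.9 CPM with neratinib and 54.8, 57.1 and 53.8 CPM in controls (log2 -1.56 ± 0.07, edgeR adjusted p = 2.1e-10), and CXCL6 with a log2 fold change of -1.04 (edgeR adjusted p = 5.3e-07). Colony-stimulating factors did not move as one. CSF3, which drives granulocyte output, had 0.784, 0.872 and 1.05 CPM with neratinib and 10.6, 11.3 and 9.86 CPM in controls (log2 -3.65 ± 0.18, edgeR adjusted p = 3.7e-10). CSF1, the macrophage factor, had 40.9, 39.6 and 40.6 CPM with neratinib and 26.7, 27.8 and 25.6 CPM in controls, and rose (log2 0.49 ± 0.09, edgeR adjusted p = 0.00049). Over 44 interleukins and other cytokines, 10 rose (22.7%), 14 fell (31.8%) and 20 did not pass.

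Growth factor ligands were lower more often than higher. All 7 EGF family ligands tested were called: 5 fell and 2 rose, but 1 of the rises was lost in 5 of the 6 fits that left out 1 of these libraries. NRG1, a ligand of ERBB3 and ERBB4, averaged 7.68 ± 1.07 CPM with neratinib and 24.3 ± 1.51 CPM in controls (log2 -1.77, edgeR adjusted p = 1e-09), EREG had a log2 fold change of -0.79 (adjusted p = 1.4e-06), and NRG4 rose (0.83, adjusted p = 1.8e-05). Of 55 other growth factors and hormones, 11 rose (20%) and 21 fell (38.2%). FGFBP1, which releases fibroblast growth factors from the matrix, had 9.51, 10.2 and 9.02 CPM with neratinib and 30.5, 31.3 and 31.5 CPM in controls (log2 -1.8 ± 0.08, edgeR adjusted p = 8.5e-11). CTGF, a matricellular factor, had 7.97, 8.67 and 8.24 CPM with neratinib and 33.7, 32.5 and 22.4 CPM in controls (log2 -1.94 ± 0.13, edgeR adjusted p = 1.1e-08). In both genes every neratinib value lay below every control value.

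Binders of growth factors split within families. Of the 8 IGF binding proteins tested, 2 rose, 4 fell and 2 did not pass. IGFBP3 averaged 319 ± 3.12 CPM with neratinib and 126 ± 4.1 CPM in controls (log2 1.24), and IGFBP6 273 ± 22 CPM with neratinib and 111 ± 1.38 CPM in controls (1.19). IGFBP4 averaged 108 ± 7.41 CPM with neratinib and 274 ± 1.13 CPM in controls (log2 -1.46), and IGFBP7 9.78 ± 2.08 CPM with neratinib and 35.4 ± 1.07 CPM in controls (-1.97). Their edgeR adjusted p-values were 1.3e-11, 1.3e-08, 6e-10 and 1.3e-09 in that order. Among 33 TGF-beta and BMP ligands and binders, 13 rose and 12 fell. FST, follistatin, which traps activins, had 36, 36 and 37.3 CPM with neratinib and 160.4, 173 and 163 CPM in controls (log2 -2.29 ± 0.07, edgeR adjusted p = 1.1e-12), while the related FSTL3 had 164, 155 and 142 CPM with neratinib and 77, 70.4 and 72 CPM in controls (log2 0.96 ± 0.1, edgeR adjusted p = 9.1e-07). The direction of these activin binders was thus opposite. In the WNT list 6 of 17 rose (35.3%) and 4 fell (23.5%). The ligands WNT9A (log2 1.2) and WNT4 (1.04) were higher and the antagonist DKK1 (-2.02) lower (edgeR adjusted p = 3.2e-06, 5.7e-07 and 1.8e-10).

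Guidance and matrix genes were called near or above the share of all genes. Semaphorins, netrins and slits rose in 7 and fell in 11 of 25 cases (10 and 8 with library size alone), with SLIT2 at log2 -1.22 (edgeR adjusted p = 5e-08). Matrix and matricellular proteins rose in 22 and fell in 24 of 79 cases (31 and 17 with library size alone). THBS1, thrombospondin 1, averaged 953 ± 50.2 CPM with neratinib and 1718 ± 197 CPM in controls (log2 -0.96, edgeR adjusted p = 7.3e-08), and THBS3 averaged 20.3 ± 1.0 CPM with neratinib and 7.79 ± 0.471 CPM in controls (log2 1.27, edgeR adjusted p = 6.3e-09).

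Surface proteins changed in both directions about equally. Of 729 genes 470 were tested, 124 rose (26.4%) and 127 fell (27%), a split that was 158 to 97 with library size alone. ULBP1 (ENSG00000111981.4, hg19 chr6:150285143-150294846), a ligand of the natural killer cell receptor NKG2D, rose most, with 22.3, 23 and 25.1 CPM with neratinib and 1.52, 2.19 and 1.74 CPM in controls (log2 3.58 ± 0.13, edgeR adjusted p = 8e-12). All its neratinib values lay above its controls. Antigen presentation genes and immune ligands as a list rose in 8 and fell in 12 of 40 tested cases, at 20% and 30%, and in 9 each with library size alone. CD55, which shields cells from complement, had 102, 97.8 and 101 CPM with neratinib and 46.7, 47 and 46.9 CPM in controls (log2 0.99 ± 0.05, edgeR adjusted p = 1.2e-09). CD83 fell (log2 -0.67, edgeR adjusted p = 1.5e-06).

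Adhesion genes moved both ways. DSG3 (ENSG00000134757.4, hg19 chr18:29027758-29058665), a desmosomal cadherin of basal layers, had 114, 113 and 123 CPM with neratinib and 39.8, 41.5 and 40.7 CPM in controls (log2 1.42 ± 0.07, edgeR adjusted p = 6.1e-10). MUC4, a membrane mucin that can bind ERBB2, had 389, 443 and 425 CPM with neratinib and 122, 157 and 182 CPM in controls (log2 1.34 ± 0.12, edgeR adjusted p = 3.4e-07). The control libraries of MUC4 spread more than those of DSG3. Cadherins rose in 22 and fell in 11 of 59 cases, with 7 falls when control replicate 1 or 2 or neratinib replicate 2 was left out, and the atypical cadherin FAT3 fell (log2 -1.51, edgeR adjusted p = 1.6e-10). Integrins rose in 3 and fell in 6 of 18 cases (5 and 6 with library size alone), with the vitronectin receptor subunits ITGAV (log2 0.34) and ITGB5 (-0.9) in opposite directions (edgeR adjusted p = 0.0054 and 6.3e-08). UPK1B, a uroplakin of the urothelial plaque, had 3.38, 3.56 and 3.6 CPM with neratinib and 8.41, 8.38 and 8.26 CPM in controls (log2 -1.35 ± 0.11, edgeR adjusted p = 8.4e-08). The tight junction gene CLDN1 fell (log2 -0.42) and CLDN15 rose (0.9), with edgeR adjusted p = 0.0003 and 3.2e-06.

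An enzyme and receptors of adenosine and prostaglandin E2 signalling were among the genes that fell. NT5E (ENSG00000135318.7, hg19 chr6:86159809-86205500), which makes extracellular adenosine, had 12.1, 10.9 and 10.9 CPM with neratinib and 45.5, 45.4 and 42.6 CPM in controls (log2 -2.09 ± 0.08, edgeR adjusted p = 3e-11). ADORA2B, an adenosine receptor, averaged 12.9 ± 0.849 CPM with neratinib and 25.9 ± 0.453 CPM in controls (log2 -1.1, edgeR adjusted p = 9.9e-09). PTGER4, a receptor of prostaglandin E2, had 3.0, 2.54 and 2.52 CPM with neratinib and 8.16, 7.0 and 7.58 CPM in controls (log2 -1.6 ± 0.1, edgeR adjusted p = 6.3e-09). All neratinib libraries of these 3 genes lay below the controls, while 126 G protein-coupled receptors as a list rose in 27 and fell in 32 cases, at 21.4% and 25.4%, near the shares of all genes (35 and 23 with library size alone).

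Receptors of cytokines and of the TNF and lipoprotein families rose in 30 and fell in 29 of 91 cases (40 and 25 with library size alone). IL20RB (ENSG00000174564.8, hg19 chr3:136665072-136729927), a subunit of receptors for IL20 family cytokines, had 12.2, 13.4 and 13.6 CPM with neratinib and 3.88, 3.87 and 3.55 CPM in controls (log2 1.69 ± 0.09, edgeR adjusted p = 6.4e-10). IL7R, the IL7 receptor alpha chain, had 20.5, 20.4 and 20.5 CPM with neratinib and 56, 54.2 and 52.8 CPM in controls (log2 -1.51 ± 0.07, edgeR adjusted p = 1.3e-10). The neratinib values of IL7R were nearly equal and lay below all controls. TNFRSF10A, a death receptor of TRAIL, averaged 8.61 ± 0.61 CPM with neratinib and 18.1 ± 0.99 CPM in controls (log2 -1.18, edgeR adjusted p = 4.5e-09).

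Transcription factor genes rose more often than they fell. Of 1059 genes 865 were tested, 311 rose (36.0%, against 23.9% of all genes) and 125 fell (14.5%, against 23.5%), and the split was 394 to 87 with library size alone. Stress and PAR bZIP factors led the class: of 39 tested, 22 were higher, 2 lower and 15 neither (median 0.30). DDIT3 (ENSG00000175197.6, hg19 chr12:57910371-57914300), the stress factor CHOP, had 34, 36.8 and 32.8 CPM with neratinib and 5.55, 5.62 and 5.2 CPM in controls (log2 2.56 ± 0.08, edgeR adjusted p = 2.3e-12). It overlaps MARS on the other strand, a methionyl-tRNA synthetase gene that averaged 452 CPM with neratinib and 182 CPM in controls, and reads of the overlap cannot be told apart where strand was not used in counting. ATF3 (ENSG00000162772.12, hg19 chr1:212738676-212794119), an early stress factor, had 25.3, 25.8 and 25 CPM with neratinib and 7.42, 7.17 and 9.04 CPM in controls (log2 1.58 ± 0.1, edgeR adjusted p = 5.2e-09). MAF, a large bZIP factor, averaged 13 ± 0.688 CPM with neratinib and 3.45 ± 0.306 CPM in controls (log2 1.8, edgeR adjusted p = 2.9e-08), and CREBRF, a regulator of CREB3, averaged 13.6 ± 2.09 CPM with neratinib and 4.06 ± 0.504 CPM in controls (log2 1.63, edgeR adjusted p = 9.3e-06). NFE2L3, a factor of the NRF family, was 1 of the 2 that fell, with 67.5, 61.6 and 65.5 CPM with neratinib and 131, 129 and 124 CPM in controls (log2 -1.08 ± 0.08, edgeR adjusted p = 5.5e-08).

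Developmental factors divided. Of 119 homeobox factors 33 rose (27.7%, against 23.9% of all genes) and 22 fell (18.5%, against 23.5%). With library size alone the split was 40 and 15. HOXB9 had 95.2, 95.9 and 92.9 CPM with neratinib and 33.5, 38 and 35.5 CPM in controls (log2 1.3 ± 0.08, edgeR adjusted p = 2.5e-09), and BARX2 had 42.8, 43.9 and 42.1 CPM with neratinib and 87.3, 92.5 and 88.9 CPM in controls (log2 -1.17 ± 0.06, edgeR adjusted p = 7.5e-10). Of 45 epithelial and urothelial lineage factors, 13 rose (28.9%) and 17 fell (37.8%), a lean that flipped to 15 and 14 with library size alone. KLF4, which promotes differentiation of surface epithelia, averaged 44.8 ± 3.39 CPM with neratinib and 26.8 ± 1.05 CPM in controls (log2 0.64), and GATA6 rose (0.6), with edgeR adjusted p = 7.7e-06 and 5.5e-05. SOX2, a factor of stem cells and squamous epithelia, had 15.1, 14.4 and 18.1 CPM with neratinib and 32.1, 33.9 and 36.4 CPM in controls (log2 -1.21 ± 0.1, edgeR adjusted p = 1.6e-07). FOXA1, a luminal urothelial factor, fell (log2 -0.67, edgeR adjusted p = 2.8e-06). Forkhead factors as a list rose in 7 (21.9%) and fell in 11 (34.4%) of 32 cases.

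Factors that read metabolites, oxygen or the time of day also moved. AHRR, the repressor of the aryl hydrocarbon receptor, had 9.21, 9.12 and 8.22 CPM with neratinib and 2.64, 3.03 and 2.52 CPM in controls (log2 1.59 ± 0.13, edgeR adjusted p = 1e-07). PPARA, a fatty acid receptor, had 24.2, 25.6 and 24 CPM with neratinib and 8.94, 8.23 and 9.25 CPM in controls (log2 1.37 ± 0.08, edgeR adjusted p = 2.1e-09), within a list of 33 nuclear receptors of which 7 rose and 12 fell (10 and 8 with library size alone). HIF1A, the oxygen-regulated subunit, averaged 264 ± 13.1 CPM with neratinib and 389.6 ± 13.7 CPM in controls (log2 -0.67, edgeR adjusted p = 8.2e-08). Of 19 circadian regulators 9 rose and 7 fell (5 rises without control replicate 1), among them the repressors BHLHE40 (log2 0.58) and NR1D2 (0.55) higher, and the activator NPAS2 (-0.94) and the repressor CRY1 (-0.72) lower. Their edgeR adjusted p-values were 2.1e-06, 0.0014, 6.3e-07 and 1.9e-06 in that order. A list of IRF, STAT and NF-kB factors that also holds SMAD7 had 12 rises (36.4%) and 1 fall (3.03%) among 33 tested. All transcription factors tested rose in 36.0% and fell in 14.5% of cases, so the share of rises was near that of the class. The 1 fall of this list was lost when control replicate 1, 2 or 3 or neratinib replicate 1 or 2 was left out. IRF5 averaged 24.1 ± 0.597 CPM with neratinib and 13.8 ± 0.161 CPM in controls (log2 0.7, edgeR adjusted p = 7.2e-06).

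Zinc finger genes named ZNF, ZSCAN, ZKSCAN or ZFP made up most of the factors tested (491 of 865). They were therefore also most of those that rose (191 of 311). Of 491 tested, 191 rose (38.9%), 44 fell (9.0%) and 256 did not pass, and the median log2 fold change was 0.18 (246 and 23 with library size alone, and 29 falls without control replicate 3 or neratinib replicate 1). Calls depend on expression level, so the genes were also read beside all genes of a like level. Below 1 CPM 6.9% of 29 zinc finger genes rose, against 15% of 4631 genes, and between 1 and 5 CPM 40% of 100 rose, against 32.3% of 2880 genes. Between 5 and 20 CPM, 44.6% of 213 zinc finger genes rose and 9.4% fell, against 31.8% and 22.6% of 3228 genes. At 20 CPM and over, 36.2% of 149 rose and 10.1% fell, against 22.7% and 37.1% of 7568 genes. Rises of 2-fold or more were few, 14 of the 491. ZNF469 averaged 10.4 ± 0.903 CPM with neratinib and 3.42 ± 0.321 CPM in controls (log2 1.49, edgeR adjusted p = 4e-07), and ZNF862 averaged 14.4 ± 0.463 CPM with neratinib and 4.97 ± 0.517 CPM in controls (log2 1.42, edgeR adjusted p = 9.7e-09).

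**Figure D3:**
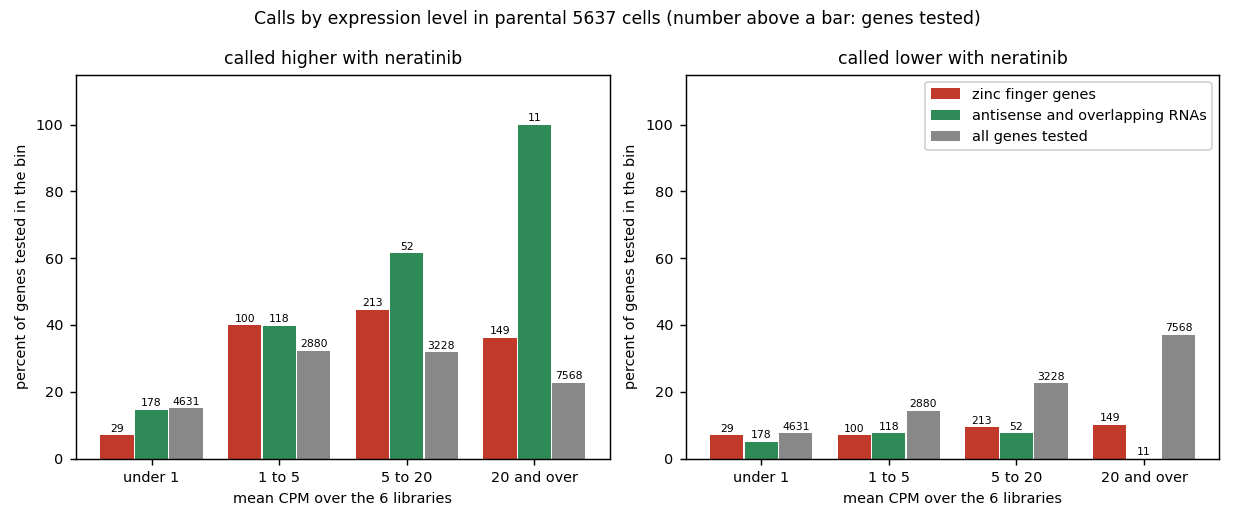
Percent of tested genes called higher (left panel) and lower (right panel) with neratinib in 4 bins of mean CPM, for zinc finger genes (red), antisense and overlapping RNAs (green) and all genes tested (grey); the number tested stands above each bar. From 1 CPM upward the red and green bars exceed the grey ones on the left and stay below them on the right, and the green bar at 20 CPM and over rests on 11 genes.

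Noncoding genes rose more often than they fell, as did all genes of low level (15% higher and 7.51% lower below 1 CPM). Of 1796 genes without clone names 607 were tested, and of these 193 rose (31.8%) and 55 fell (9.06%). By annotation 556 of the 607 were noncoding, 12 pseudogenes and 20 protein coding, and 19 could not be matched. Adding clone-named genes gave 815 rises (22.8%) and 234 falls (6.55%) among 3570 tested, a share of rises below the 23.9% of all genes. Whether counting used strand is not given in the sources used here, so reads of an antisense RNA and of its partner gene cannot be told apart where they overlap. Among the coding genes named, ERBB2, SLC6A9, SLC1A3, SLC16A3, KCNAB2, THBS3, IGFBP7, IL20RB, TNFRSF10A, AHRR, HOXB9 and NR1D2 also overlap another annotated gene. The noncoding genes GAS5, ZFAS1 and RN7SL1 do so too. Among 138 numbered intergenic RNAs, 48 rose and 13 fell, at a median of 0.36, and among 359 antisense and overlapping RNAs 116 rose and 22 fell, at a median of 0.33. Of the 178 antisense and overlapping RNAs below 1 CPM 14.6% rose, against 15% of all genes of that level. From 1 to 5 CPM 39.8% of 118 rose, against 32.3% of all genes, and between 5 and 20 CPM 61.5% of 52 rose, against 31.8% of all genes.

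LINC00365 (ENSG00000224511.1, hg19 chr13:30677315-30683012) rose most, with 5.24, 5.06 and 6.68 CPM with neratinib and 0.124, 0.222 and 0.259 CPM in controls (log2 4.68 ± 0.27, edgeR adjusted p = 1.6e-09). SLC7A11-AS1, which overlaps SLC7A11 on the other strand, had 1.62, 2.54 and 2.66 CPM with neratinib and 0.249, 0.173 and 0.259 CPM in controls (log2 3.21 ± 0.3, edgeR adjusted p = 5e-07), a change like that of SLC7A11 itself. TNRC6C-AS1 had 3.08, 3.09 and 3.27 CPM with neratinib and 0.572, 1.04 and 0.777 CPM in controls (log2 1.88 ± 0.21, edgeR adjusted p = 2.3e-06). Its partner TNRC6C averaged 24.9 CPM with neratinib and 16.8 CPM in controls, a smaller change. NR2F1 and NR2F1-AS1, an orphan nuclear receptor gene and its overlapping antisense RNA, fell together, NR2F1 at log2 -1.46 and NR2F1-AS1 at -1.81 (edgeR adjusted p = 4.2e-08 and 3.4e-07).

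Abundant long RNAs were also changed. NEAT1, the scaffold of nuclear paraspeckles, had 721, 755 and 798 CPM with neratinib and 247, 278 and 314 CPM in controls (log2 1.33 ± 0.09, edgeR adjusted p = 1.2e-08). H19 (ENSG00000130600.11, hg19 chr11:2016406-2022700), an imprinted RNA, had 157, 146 and 156 CPM with neratinib and 334, 334 and 355 CPM in controls (log2 -1.26 ± 0.09, edgeR adjusted p = 2e-08). CCAT1, an intergenic RNA near MYC, had 4.4, 4.76 and 4.91 CPM with neratinib and 20.1, 19.9 and 19.7 CPM in controls (log2 -2.19 ± 0.09, edgeR adjusted p = 7.3e-11). NEAT1 was thus higher and H19 and CCAT1 lower in every neratinib library, as the choice required. Hosts of small nucleolar RNAs rose in 10 and fell in 5 of 20 cases (11 and 3 with library size alone). GAS5 had 231, 228 and 223 CPM with neratinib and 91.5, 90.6 and 92.7 CPM in controls (log2 1.21 ± 0.05, edgeR adjusted p = 8.1e-11), and ZFAS1 averaged 122 ± 3.31 CPM with neratinib and 52.9 ± 2.52 CPM in controls (log2 1.1, edgeR adjusted p = 6e-10). SNHG15 fell (log2 -0.68, edgeR adjusted p = 6.3e-07). RN7SL1, an RNA of the signal recognition particle with near-identical copies, fell (log2 -1.43, edgeR adjusted p = 7.6e-06), and its value is uncertain because reads can be split among the copies.

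Promoters were read for motifs of the factors that answer stress and ERK signals, namely TGATGNAA, the C/EBP-ATF composite element bound by ATF4, and TGANTCA, the AP-1 element, and for the forkhead motif GTAAACA and the E-box CACGTG, each on both strands of a window of 300 bases that ended 50 bases after the start. Names were matched by symbol or, failing that, by gene ID, and entries were found for 137 of 182 named genes in the RefSeq table for GRCh38.p14. Only the first entry of a symbol was read, so any other start of a gene was left out. Among all named genes with an entry TGATGNAA was held by 5 of 73 that rose (6.85%) and 3 of 64 that fell (4.69%), TGANTCA by 6 and 4, GTAAACA by 3 and 1, and CACGTG by 4 and 4. In promoters of tested genes GTAAACA stood in 2.22% and CACGTG in 9.88%, and in all promoters in 3.41% and 7.43%. Among the leading genes of the 5 classes alone, 4 of 17 that rose held TGATGNAA, against 1 of 15 that fell, and 3.67% of all 27305 promoters and 1.75% of 10543 promoters of tested genes. TGANTCA was held by 2 of 15 leading genes that fell and 2 of 17 that rose, against 7.76% of all promoters and 5.19% of those of tested genes. ADM2, STC2, SLC6A9 and ULBP1 held neither TGATGNAA nor TGANTCA in this window. A match is a string in a window, and binding was not measured. Matches also occurred in the other direction: IL7R, which fell, held TGATGNAA, and DDIT3 and LINC00365, which rose, held TGANTCA. The sequences below are therefore examples and show no split of motifs by direction. In that of LINC00365 the TGANTCA match (tgattca) is left in lower case. The upstream 250 bases of the promoters of 3 rising genes with TGATGNAA (capitals; on the opposite strand in LINC00365) and of 2 falling genes with TGANTCA (capitals) read as follows, 5′ to 3′ on the strand of the gene, in GRCh38.p14.
ATF3 (chr1:212565157-212565406, + strand): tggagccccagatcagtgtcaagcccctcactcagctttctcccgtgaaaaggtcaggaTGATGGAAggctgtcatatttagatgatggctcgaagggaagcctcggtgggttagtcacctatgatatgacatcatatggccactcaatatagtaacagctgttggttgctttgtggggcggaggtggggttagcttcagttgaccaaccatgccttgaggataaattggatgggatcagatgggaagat
IL20RB (chr3:136957733-136957982, + strand): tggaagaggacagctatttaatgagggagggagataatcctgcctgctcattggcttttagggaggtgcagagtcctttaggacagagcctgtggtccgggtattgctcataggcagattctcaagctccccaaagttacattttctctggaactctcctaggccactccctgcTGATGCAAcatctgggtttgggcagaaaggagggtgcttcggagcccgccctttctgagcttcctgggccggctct
LINC00365 (chr13:30108876-30109125, - strand): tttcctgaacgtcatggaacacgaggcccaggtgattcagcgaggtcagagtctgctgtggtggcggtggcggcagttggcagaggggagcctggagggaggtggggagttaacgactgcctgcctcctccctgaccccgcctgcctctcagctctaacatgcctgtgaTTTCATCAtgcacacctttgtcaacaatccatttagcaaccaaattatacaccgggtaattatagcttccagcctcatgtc
MMP10 (chr11:102780629-102780878, - strand): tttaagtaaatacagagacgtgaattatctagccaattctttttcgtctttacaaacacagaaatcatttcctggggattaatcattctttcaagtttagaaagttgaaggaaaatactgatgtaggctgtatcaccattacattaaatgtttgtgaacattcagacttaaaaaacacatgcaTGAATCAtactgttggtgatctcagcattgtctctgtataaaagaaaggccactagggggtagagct
KCNJ15 (chr21:38272258-38272507, + strand): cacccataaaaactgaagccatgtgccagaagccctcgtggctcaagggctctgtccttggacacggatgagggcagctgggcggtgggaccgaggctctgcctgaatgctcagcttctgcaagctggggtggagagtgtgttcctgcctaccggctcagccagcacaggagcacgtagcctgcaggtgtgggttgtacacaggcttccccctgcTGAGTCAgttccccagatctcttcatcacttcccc
The capitals begin 191 bases before the start in ATF3, 76 in IL20RB, 81 in LINC00365, 67 in MMP10 and 35 in KCNJ15.

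The effect of neratinib in parental cells was then set against that in resistant cells of the same line at the same dose. The difference between the effects was tested as an interaction over 18307 genes, of which 6.48% had a higher effect in parental cells and 7.39% a lower one. Stress bZIP factors had a higher effect in parental cells in 13 of 39 cases and a lower one in 1. For secreted factors the counts were 66 higher and 63 lower of 379, for transporters 45 and 26 of 453, and for transcription factors 90 and 45 of 865. Surface proteins had 53 of each among 470, and noncoding genes without clone names 37 and 23 among 607.

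STC2 moved in opposite directions. Its log2 fold change was 2.03 in parental cells and -0.56 in NR cells, where it averaged 386 ± 17.6 CPM with neratinib and 524 ± 18.2 CPM in controls (difference 2.6 ± 0.07 SE, edgeR adjusted p = 8.6e-12). NR controls already held more STC2 than parental cells on the drug. The log2 fold change of ABCG1 was 2.02 in parental and -0.13 in NR cells (difference 2.15 ± 0.19, edgeR adjusted p = 2.2e-06). AHRR changed by 1.59 in parental and 0.03 in NR cells (difference 1.56 ± 0.18, edgeR adjusted p = 2.6e-05), and HOXB9 by 1.3 and 0.15 (difference 1.16 ± 0.11, edgeR adjusted p = 3.2e-06). DDIT3 rose in both, by 2.56 in parental and 1.25 in NR cells, and the difference passed (edgeR adjusted p = 1.3e-06).

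Several genes that fell in parental cells were not called lower in NR cells. FGFBP1 changed by -1.8 in parental and by 0.7 in NR cells (difference -2.5 ± 0.11, edgeR adjusted p = 2.1e-09). NRG1 averaged 34.1 ± 1.72 CPM with neratinib and 26.2 ± 1.48 CPM in controls of NR cells (difference -2.03 ± 0.13, edgeR adjusted p = 8.7e-08). FST changed by -2.29 in parental and -0.14 in NR cells, where both groups stood near the level of parental cells on the drug, at 39.2 ± 3.92 CPM with neratinib and 39.5 ± 2.47 CPM in controls (difference -2.15 ± 0.09, edgeR adjusted p = 1.4e-09). IL7R changed by -1.51 in parental and -0.05 in NR cells (edgeR adjusted p of the difference = 6.4e-08), UPK1B by -1.35 and 0.42 (adjusted p = 2.8e-06), KCNJ15 by -1.14 and -0.13 (adjusted p = 3.1e-07), and H19 by -1.26 and 0.36 (adjusted p = 8.2e-07). In contrast, NEAT1 changed by 1.33 in parental and 1.39 in NR cells (difference -0.05 ± 0.13, edgeR adjusted p = 0.84), and ULBP1 by 3.58 and 3.13 (difference 0.45 ± 0.18, adjusted p = 0.12), so no difference passed for these.

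Metalloproteinases fell in NR cells as well, by less. MMP1 changed by -4.11 in parental and -2.97 in NR cells (difference -1.14 ± 0.12, edgeR adjusted p = 1.1e-05), and MMP10 by -4.45 and -3.0 (adjusted p = 0.00055). MMP13 stood at 0.0695 ± 0.0346 CPM with neratinib and 0.109 ± 0.0999 CPM in controls of NR cells, levels too low for a fall to be detectable.

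**Figure D4:**
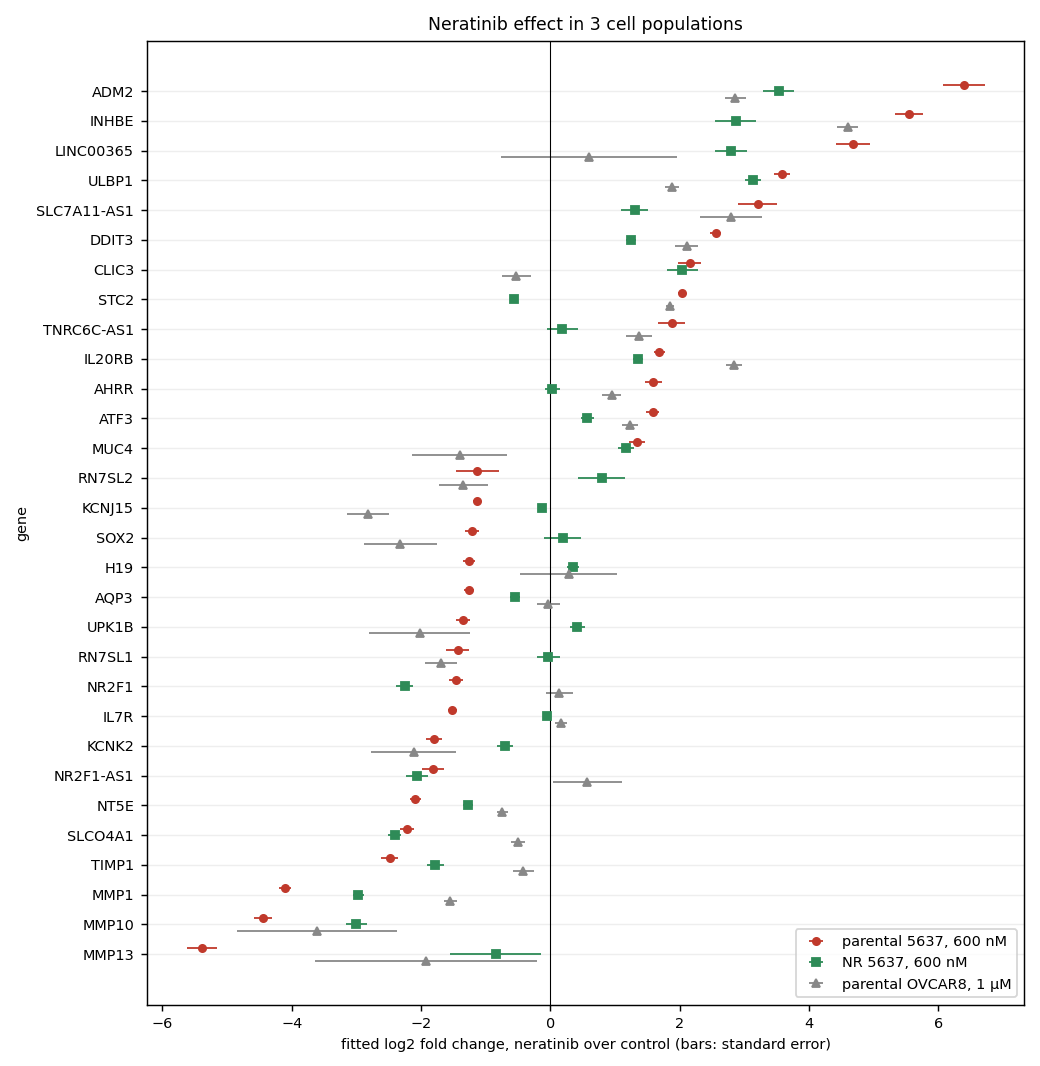
Fitted log2 fold change of neratinib over control, with standard errors, in parental 5637 (red circles), NR 5637 (green squares) and parental OVCAR8 cells (grey triangles) for leading genes whose effect in parental 5637 differed by at least 2-fold from that in another population. STC2, KCNJ15, UPK1B, IL7R and H19 show red points away from 0 with green points near or across it, and wide grey bars mark genes that OVCAR8 hardly expresses.

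Against parental OVCAR8 cells, the effect in 5637 was higher for 4.83% and lower for 5.46% of 20250 genes tested in all 24 libraries. Line and dose cannot be told apart in this comparison, since OVCAR8 received 1 µM. The effect in 5637 comes from the fit of its 12 libraries and the difference from that of all 24, so the values need not subtract exactly. Leaving out OVCAR8 control replicate 2 raised the counts to 1852 higher and 2017 lower, against 978 and 1105 with it, and leaving out parental 5637 control replicate 1 or 2 gave 602 or 645 higher. Of 427 secreted factors tested there, 41 had a higher effect in 5637 and 74 a lower one. DUSP6 changed by -5.16 in 5637 and -0.31 in OVCAR8, where it averaged 2.75 ± 0.524 CPM with neratinib and 3.19 ± 0.281 CPM in controls (difference -4.82 ± 0.2, edgeR adjusted p = 1.6e-13). CXCL1 changed in opposite directions, by -1.56 in 5637 and 1.14 in OVCAR8 (difference -2.68 ± 0.16, edgeR adjusted p = 5.9e-11). MMP1 changed by -4.11 in 5637 and -1.55 in OVCAR8 (difference -2.54 ± 0.15, edgeR adjusted p = 5.1e-11), and SLCO4A1 by -2.21 and -0.5 (difference -1.69 ± 0.16, edgeR adjusted p = 1.7e-07). TIMP1 changed by -2.48 in 5637 and -0.42 in OVCAR8 (difference -2.04 ± 0.25, edgeR adjusted p = 6.3e-06). Without the OVCAR8 control library that stood apart these 4 differences were -2.74, -2.58, -1.59 and -2.42. Without that library TIMP1 in OVCAR8 itself was at -0.045 (edgeR adjusted p = 0.72), against -0.42 (adjusted p = 0.049) with it.

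Among the leading transporter genes of 5637, SLC7A11, SLC6A9, ABCC3 and SLC1A4 rose in OVCAR8 too. CLIC3 (log2 -0.53 in OVCAR8) and ABCG1 (-0.3, at below 1 CPM there) did not. SLC7A11 changed by 3.29 in 5637 and 3.15 in OVCAR8 (difference 0.15 ± 0.24, edgeR adjusted p = 0.78). Without OVCAR8 control replicate 2 the effect on SLC7A11 in OVCAR8 was 2.89 and the difference 0.41 (edgeR adjusted p = 0.051). ABCC3, which OVCAR8 expressed at 1.51 ± 0.166 CPM with neratinib and 0.272 ± 0.0588 CPM in controls, changed by 2.25 in 5637 and 2.38 in OVCAR8 (difference -0.11 ± 0.2, edgeR adjusted p = 0.84). SLC6A9 rose by less in 5637, by 2.57 against 3.33 (difference -0.73 ± 0.15, edgeR adjusted p = 0.0016). IL20RB also rose by less in 5637, by 1.69 against 2.85 in OVCAR8 (difference -1.14 ± 0.16, edgeR adjusted p = 4.4e-05), whereas ULBP1 rose by more, by 3.58 against 1.88 (difference 1.72 ± 0.17, edgeR adjusted p = 2.4e-07). ADM2 rose by 6.39 in 5637 and 2.86 in OVCAR8, whose controls already held 7.42 ± 0.649 CPM (difference 3.55 ± 0.38, edgeR adjusted p = 8.1e-07). DSG3 and MAF were at 0 CPM on average in both OVCAR8 groups, so they allow no comparison.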

How the data were processed

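RNA was measured in 24 libraries made with a stranded mRNA kit and sequenced in pairs on an Illumina instrument, per the labels' protocols. The deposited values are raw counts per gene, and the submitters' processing notes name FastQC, STAR 2.5.3a, featureCounts 1.15.2, DESeq2 1.18.1 and the build hg19 without roles. The strand setting and annotation release are not given in the sources used here. The table held 39786 genes.

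Counts of the 12 libraries of 5637 were fitted with edgeR 4.0.16 (quasi-likelihood, trimmed mean of M-values scaling, filterByExpr, 4 group means, 8 residual degrees of freedom, Benjamini-Hochberg over all genes tested, threshold 0.05). Standard errors were the log2 fold change divided by the square root of F. The comparison with OVCAR8 used all 24 libraries and 16 residual degrees of freedom. Replicates differed beyond sampling noise. Levels (CPM) are counts scaled to the library total, given as mean ± SD over 3 libraries or per library. A simulated set of 17815 tested genes held changes only in some genes averaging at least 5 CPM, and none elsewhere. Of these changes of the neratinib effect in parental 5637, 93% of 1.5-fold and 100% of 2-fold ones were recovered. Recovery at lower levels, or with as many changed genes as in the data, was not simulated.

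Named genes were examples of those past the threshold, with no overlap between the neratinib and control libraries and a mean of at least 5 CPM (1 CPM for noncoding genes), that had the 5 largest rises or falls of a class or the 2 largest of a list, plus DUSP6, EGFR, ERBB2 and ERBB3. Clone names were left out, and some genes that meet the rule are not reported here. The members and lists were chosen with earlier results of these data known. Alternatives were DESeq2 1.42.0, limma voom 3.58.1, other scalings and filters, the 6 libraries alone, a replicate block and leaving out each library.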

Additional observations from a re-analysis of the deposited data

Results flagged for a closer look

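The results below were singled out because the effect of neratinib in parental 5637 cells differed from that in another population by at least 2-fold, with an edgeR adjusted p below 0.05 for the difference itself. Among the 182 named genes 92 differences from NR 5637 passed, 32 of them at least 2-fold, and 78 differences from parental OVCAR8 passed, 39 of them at least 2-fold. Over all genes tested, the effect was higher for 6.48% and lower for 7.39% against NR 5637. Against OVCAR8 these shares were 4.83% and 5.46%. The named genes were chosen for large effects in the parental 5637 libraries that enter both differences, so a larger share was built in. Values are log2 effects in parental 5637 minus those in the other population.

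Against NR 5637 the effect was higher in parental cells for secreted factors ADM2 (2.86), INHBE (2.68) and STC2 (2.6), for the carrier ABCG1 (2.15) and the channel subunit KCNAB2 (1.08). Among transcription factors it was higher for ZNF469 (2.05), AHRR (1.56), DDIT3 (1.31), HOXB9 (1.16) and ATF3 (1.01), and among noncoding genes for SLC7A11-AS1 (1.91), LINC00365 (1.89) and TNRC6C-AS1 (1.69). The effect was lower in parental cells for the proteases MMP13 (-4.55), MMP10 (-1.45) and MMP1 (-1.14). It was also lower for the factors FGFBP1 (-2.5), FST (-2.15), NRG1 (-2.03), PI3 (-1.44) and IGFBP7 (-1.33). Surface and transport genes on this side were UPK1B (-1.77), IL7R (-1.47), KCNK2 (-1.09), SLC1A3 (-1.07) and KCNJ15 (-1.01), and the others were H19 (-1.62), SOX2 (-1.4) and RN7SL1 (-1.4). In NR cells MMP13, at 0.0695 ± 0.0346 CPM with neratinib and 0.109 ± 0.0999 CPM in controls, was too low for a fall to be detectable, so the size of its difference cannot be read. SOX2 and TNRC6C-AS1 were also below 1 CPM in both NR groups. Each of these differences passed in every fit that left out 1 library.

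Against parental OVCAR8, at another dose, the effect in 5637 was higher for ADM2 (3.55), MUC4 (2.77), CLIC3 (2.7), ABCG1 (2.34), ULBP1 (1.72), KCNJ15 (1.7), KCNAB2 (1.21), FSTL3 (1.13) and THBS3 (1.02). It was lower for DUSP6 (-4.82) and for the secreted factors PI3 (-2.93), CXCL1 (-2.68), MMP1 (-2.54), TIMP1 (-2.04), SLIT2 (-1.52), DKK1 (-1.34), CTGF (-1.24), FST (-1.22), NRG1 (-1.14) and IGFBP4 (-1.01). Carriers and surface genes with a lower effect were SLCO4A1 (-1.69), IL7R (-1.66), NT5E (-1.32), CLDN1 (-1.24), TNFRSF10A (-1.22), AQP3 (-1.21) and IL20RB (-1.14). NR2F1-AS1 (-2.37), NR2F1 (-1.57) and NPAS2 (-1.04) were lower as well. In OVCAR8, ABCG1 stood at 0.168 ± 0.0594 CPM with neratinib and 0.198 ± 0.123 CPM in controls, and KCNJ15 at 0.0657 ± 0.0325 and 0.474 ± 0.13 CPM. MUC4, PI3, FST, NR2F1 and NR2F1-AS1 were likewise below 1 CPM in both OVCAR8 groups, and the differences of these 7 genes rest on few counts there. The difference of MUC4 was 1.77 (edgeR adjusted p = 0.39) without OVCAR8 control replicate 2, and that of ABCG1 was 1.75 (adjusted p = 0.062) without OVCAR8 control replicate 3. That of NR2F1-AS1 was -1.66 (edgeR adjusted p = 0.16) without OVCAR8 neratinib replicate 3. FST did not pass without OVCAR8 control replicate 1 (edgeR adjusted p = 0.067) or neratinib replicate 2 or 3 (0.14 and 0.17).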

How the results depend on the processing

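For the neratinib effect in parental 5637 no named gene reversed its direction in any alternative, and of 2548 values 2518 stayed on their side of the threshold. All but DUSP6, EGFR, ERBB2 and ERBB3 were chosen in these same libraries for passing the threshold without overlap. Such stability therefore describes the choice and says little about other genes. The 30 lost calls fell on 6 genes, namely GJB6, FOXE1, RN7SL2, MIR155HG, EGFR and ERBB2. Among differences from OVCAR8 of at least 2-fold, those of ABCG1, FST, MUC4, NR2F1-AS1 and MIR621 did not pass in at least 1 fit without a library. Leaving out 1 library gave 3691 to 3949 genes higher and 3716 to 3952 lower for neratinib in parental 5637. The ranges of members higher and lower were 123 to 140 and 88 to 93 for transporters, 88 to 100 and 119 to 124 for secreted factors, 101 to 112 and 106 to 114 for surface proteins, 266 to 289 and 100 to 113 for transcription factors, and 664 to 770 and 201 to 215 for noncoding genes. For parental minus NR cells they were 854 to 1653 and 977 to 1688, and for 5637 minus OVCAR8 602 to 1852 and 798 to 2017. In that last contrast the highest counts came without OVCAR8 control replicate 2 (1852 and 2017). The fewest higher genes came without parental 5637 control replicate 1 (602) or 2 (645). The fewest lower genes came without OVCAR8 neratinib replicate 2 (798). The cause was not tested. Deviations from the group mean, over genes averaging at least 5 CPM, were correlated between neratinib and control libraries. Same-numbered libraries gave -0.21 to 0.15 in parental 5637 and -0.50 to 0.45 in NR 5637. Differently numbered ones gave -0.23 to 0.29 and -0.68 to 0.80, so the numbers were not taken to pair samples. With 3 libraries per group the deviations depend on each other, and this check is weak. A replicate block gave 4149 genes higher and 4106 lower for neratinib in parental 5637. Counts of list members moved over 1.5 times in 63 of 1288 values. Genes below a few CPM rest on few counts. Differences between lines were simulated only in genes averaging at least 5 CPM, at a like level in both lines. Of these, 94% of 2-fold and 42% of 1.5-fold ones were recovered. Recovery for genes of lower level, or of unequal level in the lines, was not simulated.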
